A study of Homo sapiens with 6 samples.

Results

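Collagen VI chain transcripts were measured in gefitinib-resistant PC9-GR cells and in their parental line PC9. The members are the 3 genes whose symbol in the deposited table is COL6A1, COL6A2 or COL6A3, out of 1705 genes in the table. PC9 is a human lung adenocarcinoma line, labelled as epithelial, and both lines carry a deletion in exon 19 of EGFR, the receptor kinase that gefitinib inhibits. PC9-GR was selected with gefitinib doses that began at 0.5 µM, was then kept at 10 µM, and grew without drug for 7 days before RNA was taken. PC9 was the untreated parent. Each line gave 3 libraries, described as independent cultures, and no source used here says whether PC9-GR is a clone. In bulk RNA, a change in the share of cells that express a gene and a change in RNA per cell cannot be told apart.

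Collagen VI is a microfibrillar collagen of the matrix around cells. Its basic unit is a triple helix made of an alpha1, an alpha2 and an alpha3 chain, the products of COL6A1, COL6A2 and COL6A3. These units pair up inside the cell, are secreted as tetramers and join end to end into beaded filaments. Mutations in any of these chains cause inherited muscle disease. In most tissues fibroblasts and other mesenchymal cells are the main source. The alpha3 chain is by far the longest and carries extra von Willebrand factor type A domains, and a fragment of its carboxyl end, endotrophin, is released after secretion. COL6A1 and COL6A2 lie in tandem on the long arm of chromosome 21, and COL6A3 lies on chromosome 2.

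The promoter windows of COL6A2 and COL6A3 are unlike in base composition. The 250 bases before the start of COL6A2 (chr21:46097862-46098111, plus strand) and of COL6A3 (chr2:237414165-237414414, minus strand) are shown because the first chain rose 2.53-fold and the second 88.9-fold in PC9-GR. They come from RefSeq on GRCh38.p14, which matched 2 of the 3 chains, COL6A1 not among them. Capitals mark each GC box (GGGCGG) and TATA box (TATAAA), read on both strands. Whether promoter sequence bears on the unequal rises was not tested.
COL6A2: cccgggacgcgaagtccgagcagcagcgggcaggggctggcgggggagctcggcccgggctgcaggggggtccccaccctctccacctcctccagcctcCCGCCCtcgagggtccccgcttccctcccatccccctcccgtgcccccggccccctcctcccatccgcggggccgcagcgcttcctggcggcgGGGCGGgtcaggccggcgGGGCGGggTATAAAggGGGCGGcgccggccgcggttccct
COL6A3: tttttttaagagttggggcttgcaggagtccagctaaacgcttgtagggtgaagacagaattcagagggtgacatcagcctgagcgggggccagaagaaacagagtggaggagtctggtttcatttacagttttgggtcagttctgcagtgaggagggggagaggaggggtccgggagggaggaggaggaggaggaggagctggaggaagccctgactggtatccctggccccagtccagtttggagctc

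The COL6A2 window is 79.6% G and C and holds 28 CpG pairs. The COL6A3 window is 56% G and C and holds 3 CpG pairs. The medians over 35116 RefSeq promoter windows of the same length are 58% and 11 CpG pairs. COL6A2 has 4 GC boxes, a motif found in 42.6% of all windows, and 1 TATA box, found in 10.7%. None of the 4 GC boxes overlaps the TATA box. COL6A3 has neither. The letters of an AP-1 element (TGANTCA, in 6.57% of windows), a TEAD element (GGAATG, 11.9%) and a ZEB and SNAI E-box (CACCTG, 17.5%) are in neither window. RefSeq also places a divergent transcript, COL6A2-DT, whose start lies 467 bases from that of COL6A2, and it has no row in the deposited table.

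Values are FPKM, fragments per kilobase of transcript scaled to the mapped fragments of the library, so chains can be compared per length within a library. The table is a selection: the authors' ratio was above 1 for 871 genes and below it for 834, each with an absolute log2 ratio above 1 in the authors' deposited table. The largest p-value of the authors' own comparison there is 0.04965. Because the same libraries chose the genes, a test on any of them is not independent evidence that it differs. The table gives no counts, so no counting error can be stated. Summed FPKM over the listed genes was 16705 to 17114 in PC9-GR libraries and 28346 to 30541 in PC9 libraries. None of the 8 epithelial markers looked up is in the table, so the labelled cell type could not be checked.

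All 3 chains were higher in PC9-GR, and by very unequal amounts. COL6A3 was barely present in PC9 and rose 88.9-fold, whereas COL6A1 and COL6A2 were already abundant in PC9 and rose 1.99-fold and 2.53-fold. In limma's moderated test on log2(FPKM + 1), all 3 passed at an adjusted p under 0.05. So did 48.4% of the 1207 tested genes in the same direction, with 51.3% called lower and 4 genes not called, so nearly every gene of this preselected table received a call. The PC9-GR and PC9 libraries did not overlap for any chain, which also held, in the higher direction, for 48.3% of the listed genes.

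COL6A1, the alpha1 chain (ENSG00000142156, chromosome 21, 47401650 to 47424964 in the table, whose genome build is not named), measured 110.7, 112.3 and 103.7 FPKM in PC9-GR, against 51.6, 60.1 and 52.4 FPKM in PC9. The lowest PC9-GR library lay well above the highest PC9 library. The means were 108.9 ± 4.55 FPKM in PC9-GR and 54.7 ± 4.69 FPKM in PC9 (SD, n = 3 each), a 1.99-fold difference. The log2 difference was 0.98 ± 0.0989 (SE), with a 95% interval of 0.76 to 1.21 and a limma adjusted p of 8.17e-06. COL6A1 stood close to the edge of the selection: the authors' deposited table gives it a ratio of 2.05 from group FPKM values of 112.7 in PC9-GR and 55.1 in PC9, and its absolute log2 ratio there is the 79th smallest of 1705.

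COL6A2, the alpha2 chain (ENSG00000142173, chromosome 21, 47518010 to 47552763 in the table), measured 79.6, 92.1 and 73.8 FPKM in PC9-GR, against 35.3, 31.8 and 29.8 FPKM in PC9. Every PC9-GR library was above every PC9 library, and the PC9-GR values were the more spread. The means were 81.8 ± 9.38 FPKM in PC9-GR and 32.3 ± 2.80 FPKM in PC9 (SD, n = 3 each), a 2.53-fold difference. The log2 difference was 1.31 ± 0.114 (SE), with a 95% interval of 1.06 to 1.57 and a limma adjusted p of 3.48e-06. In PC9-GR, replicate 2 was highest and replicate 3 lowest for both COL6A1 and COL6A2.

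COL6A3, the alpha3 chain (ENSG00000163359, chromosome 2, 238232645 to 238323018 in the table), measured 28.2, 27.3 and 29.1 FPKM in PC9-GR, against 0.242, 0.408 and 0.301 FPKM in PC9. The PC9-GR libraries were close together, with a coefficient of variation of 3.34%, and the PC9 libraries were all low but above the table's floor of 0.001 FPKM. The means were 28.2 ± 0.942 FPKM in PC9-GR and 0.317 ± 0.0844 FPKM in PC9 (SD, n = 3 each), an 88.9-fold difference. The log2 difference was 4.47 ± 0.121 (SE), with a 95% interval of 4.20 to 4.74 and a limma adjusted p of 8.94e-09. It ranked first among the 1207 tested genes on this scale, with COL6A2 at rank 204 and COL6A1 at rank 381. COL6A3 met the filter of at least 1 FPKM in at least 3 libraries only through its PC9-GR libraries. Its rank therefore describes this table and is not further evidence of a difference. The added pseudocount shrinks the value for a gene this low in PC9, which was 6.10 with a pseudocount of 0.1. The authors' deposited table gives a log2 ratio of 6.49. A larger ratio is given there for 22 of the 1705 genes, and each of these has at least 1 PC9 library at the floor.

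**Figure D1:**
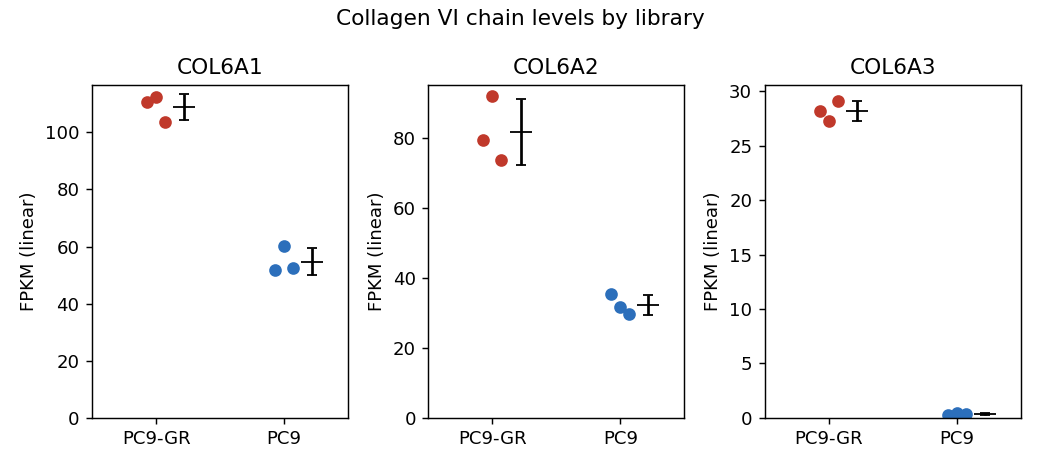
FPKM of each collagen VI chain on a linear axis that starts at 0, with a separate scale per chain. Points are the 3 libraries of PC9-GR (left, red) and of PC9 (right, blue), and the black mark is the mean with its SD. PC9-GR libraries lie above PC9 libraries for each chain, and COL6A3 is near 0 in PC9 at 0.242 to 0.408 FPKM.

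Together the chains summed to 218.5, 231.7 and 206.7 FPKM in PC9-GR, against 87.2, 92.3 and 82.5 FPKM in PC9. Mean summed level was 2.51-fold higher in PC9-GR. Of the difference of 131.6 FPKM, COL6A1 supplied 41.2%, COL6A2 37.6% and COL6A3 21.2%, so the chain with by far the highest fold added the fewest FPKM. As a share of the summed FPKM, COL6A3 made up 12.9% ± 1.17 in PC9-GR and 0.362% ± 0.0825 in PC9. The share of COL6A1 was 49.8% ± 1.17 in PC9-GR and 62.6% ± 3.05 in PC9. The share of COL6A2 was 37.3% ± 2.17 in PC9-GR and 37.0% ± 3.13 in PC9, a difference smaller than the spread between libraries (SD, n = 3 each throughout).

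The unequal length of the chains bears on the reads behind these values. The longest coding transcript in GENCODE 29 is 4238 bases for COL6A1, 3461 bases for COL6A2 and 10749 bases for COL6A3, though the authors' own annotation is not given in the sources used here. FPKM times that length gives, per 1000000 mapped fragments, about 303 in PC9-GR and 3.41 in PC9 for COL6A3. For COL6A1 it gives 462 in PC9-GR and 232 in PC9, and for COL6A2 283 in PC9-GR and 112 in PC9. In PC9-GR the libraries of COL6A3 and COL6A2 overlapped on this measure, at 293 to 313 for COL6A3 and 255 to 319 for COL6A2. The number of fragments behind any value is not known.

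The ratios between chains, taken within each library, ask whether the chains kept their proportions, and any scaling of a whole library cancels in them. COL6A3 to COL6A1 was 0.254, 0.243 and 0.281 in PC9-GR, against 0.00468, 0.00679 and 0.00574 in PC9. That is a 45.6-fold higher ratio in PC9-GR, by geometric means, with a log2 difference of 5.51 ± 0.167 (SE). COL6A3 to COL6A2 was 0.354, 0.296 and 0.395 in PC9-GR, against 0.00685, 0.0128 and 0.0101 in PC9. That is 36.0-fold higher in PC9-GR, with a log2 difference of 5.17 ± 0.291 (SE). In both ratios the lines were far apart. With a pseudocount of 1 added to each chain first, these log2 differences were 3.49 and 3.16.

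COL6A1 to COL6A2 was 1.39, 1.22 and 1.41 in PC9-GR, against 1.46, 1.89 and 1.76 in PC9. COL6A1 was thus the higher of the pair in every library of both lines, and by less in PC9-GR. The log2 difference of this ratio was -0.34 ± 0.129 (SE), and the lines did not overlap, although the highest PC9-GR library and the lowest PC9 library were close. Each of the 3 ratios gave a two-sided exact permutation p of 0.1, which is the smallest that 3 against 3 libraries allow, and 0.1 after Benjamini-Hochberg adjustment over the 3 ratios. This test could therefore not reach 0.05 for any of them.

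**Figure D2:**
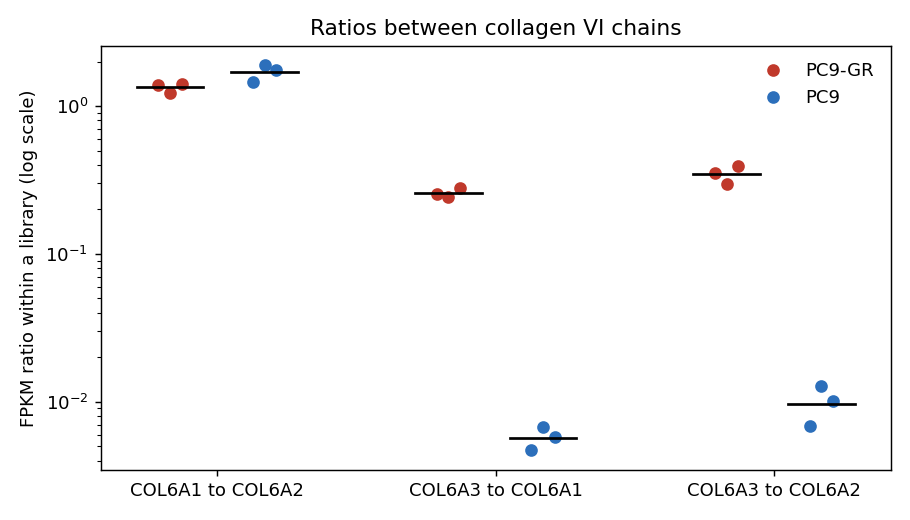
FPKM ratio of chain pairs within each library, on a log axis. Points are libraries of PC9-GR (left of each pair, red) and PC9 (right, blue), and bars are geometric means of 3 libraries. COL6A3 relative to either partner chain is 36.0-fold to 45.6-fold higher in PC9-GR, while COL6A1 to COL6A2 differs little, with means of 1.34 in PC9-GR and 1.70 in PC9.

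Among the 14 collagen genes in the table, COL6A1, COL6A2 and COL6A3 were the 3 most abundant per length in PC9-GR, in that order, and no neighbours in that order overlapped. COL5A1, a minor fibrillar chain, came next at 15.0 ± 2.26 FPKM in PC9-GR and had 1.55 ± 0.402 FPKM in PC9 (SD, n = 3 each). In PC9 the order was different. COL6A1 was at rank 1, COL8A1 at rank 2 and COL6A2 at rank 3, and the libraries of COL8A1 and COL6A2 overlapped. COL6A3 was at rank 10 in PC9, where its libraries overlapped those of COL9A3 just below it.

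Of 41 other collagen genes, 11 are listed in the table and 8 passed the filter of at least 1 FPKM in at least 3 libraries. Of these 8, 6 were called higher and 2 lower, beside 48.4% higher and 51.3% lower over all tested genes. The median log2 difference was 1.24 for the 8, against -0.63 over all tested genes. COL4A1, COL27A1 and COL9A2 met the filter only through PC9-GR, and COL17A1 met it mainly through PC9. COL5A1 had a log2 difference of 2.65 ± 0.163 (SE). The basement membrane chain COL4A1 measured 3.95 ± 0.736 FPKM in PC9-GR and 0.205 ± 0.0774 FPKM in PC9, but it shares its locus in the table with COL4A2, so its reads are uncertain. COL8A1, a short-chain collagen, fell to 8.91 ± 1.57 FPKM in PC9-GR, against 37.3 ± 4.78 FPKM in PC9. COL17A1, a transmembrane collagen of hemidesmosomes, fell to 0.924 ± 0.373 FPKM in PC9-GR, against 4.44 ± 0.982 FPKM in PC9 (SD, n = 3 each). No other collagen VI chain (COL6A5, COL6A6 or the COL6A4 pseudogenes) has a row, so their levels were not analysed here.

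**Figure D3:**
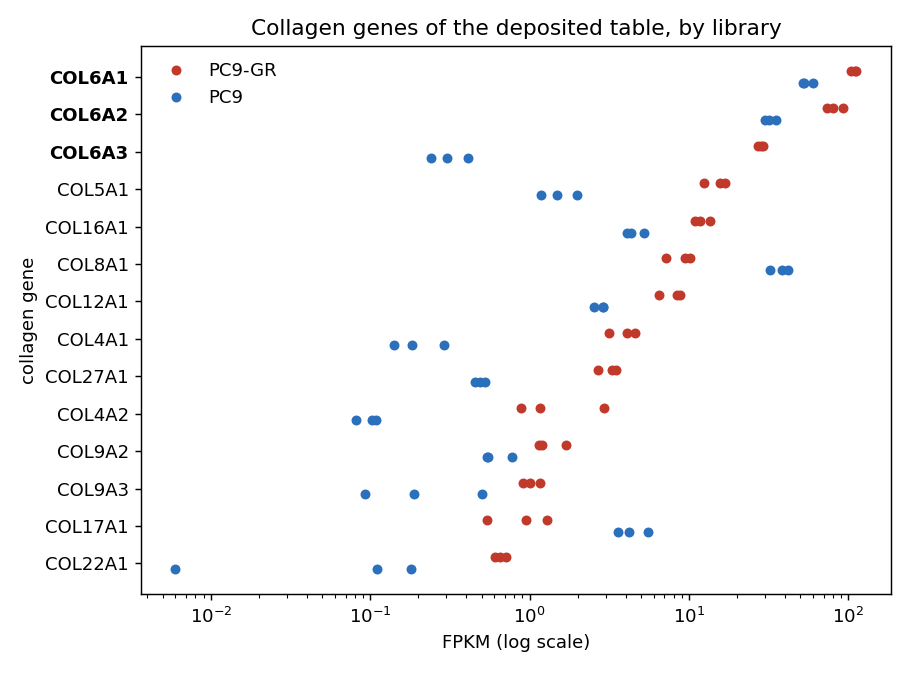
FPKM of the 14 collagen genes in the deposited table, on a log axis, ordered by mean level in PC9-GR with the collagen VI chains in bold. Points are libraries of PC9-GR (red, upper row of each gene) and PC9 (blue, lower row). The collagen VI chains lead in PC9-GR, and COL6A3 shows the widest gap between lines, with 28.2 FPKM in PC9-GR and 0.317 FPKM in PC9 on average.

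Receptors, partners and processing enzymes of collagen VI were called in both directions. Of 32 genes in that list, 9 are in the table and 8 were tested, of which 6 were called higher and 2 lower, with a median log2 difference of 1.13. MMP9 and MATN4 met the filter of 1 FPKM in at least 3 libraries only through PC9-GR. A lower call was not open to them. Over all tested genes 48.4% were called higher and 51.3% lower, with a median of -0.63, so a call is the usual outcome here. ITGAV, the alpha v integrin subunit of matrix receptors, measured 98.6 ± 10.8 FPKM in PC9-GR and 46.8 ± 2.78 FPKM in PC9. ITGA2, the alpha2 subunit of a collagen-binding integrin, fell to 46.9 ± 3.84 FPKM in PC9-GR, against 97.9 ± 5.72 FPKM in PC9. These integrin subunits thus changed in opposite directions (SD, n = 3 each, here and below).

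Several of the listed partners are secreted matrix proteins. TGFBI, a secreted adhesion protein that associates with collagen VI, measured 332 ± 31.4 FPKM in PC9-GR and 149.8 ± 14.7 FPKM in PC9. The matrilin MATN2 measured 34.1 ± 1.88 FPKM in PC9-GR and 11.4 ± 0.823 FPKM in PC9. MATN4, another matrilin, measured 1.58 ± 0.191 FPKM in PC9-GR and 0.167 ± 0.0391 FPKM in PC9. MFAP5, a glycoprotein of elastic microfibrils, ran the other way and fell by 3.65 on the log2 scale, with 5.66 ± 1.54 FPKM in PC9-GR and 82.0 ± 12.9 FPKM in PC9.

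Among proteases, the membrane-anchored metalloprotease MMP14 measured 14.9 ± 3.99 FPKM in PC9-GR and 6.22 ± 0.781 FPKM in PC9, and the secreted gelatinase MMP9 had a log2 difference of 3.56 ± 0.138 (SE). MMP9 was below 1 FPKM in every PC9 library. TLL1, a tolloid-like protease, missed the filter, with 0.213 ± 0.0453 FPKM in PC9-GR and 0.708 ± 0.231 FPKM in PC9. Without the filter it was called lower, with a limma adjusted p of 0.00336, as were 47.5% of all 1705 genes. Of 37 genes for collagen folding, modification and secretion, 3 are in the table, and all 3 were called higher, with a median log2 difference of 1.98, beside 48.4% of all tested genes called higher and their median of -0.63. LEPRE1, a prolyl 3-hydroxylase of collagen, measured 23.9 ± 1.63 FPKM in PC9-GR and 8.91 ± 1.22 FPKM in PC9. LOXL2, a lysyl oxidase that crosslinks collagen, measured 39.2 ± 9.29 FPKM in PC9-GR and 9.13 ± 1.95 FPKM in PC9. SPARC, a collagen-binding matricellular protein, had a log2 difference of 3.49 ± 0.129 (SE). The levels of the general prolyl 4-hydroxylases, lysyl hydroxylases and SERPINH1 were not analysed here, since none has a row.

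Markers of fibroblasts, the usual source of collagen VI, were looked up beside these values. Of 12 markers, 2 are in the table, PDGFRB and ACTA2, and both were called higher, as were 48.4% of all tested genes. Both met the filter of 1 FPKM in at least 3 libraries only through PC9-GR. A lower call was therefore not open to either. The summed level of PDGFRB and ACTA2 was 4.61 to 6.04 FPKM in PC9-GR libraries and 0.873 to 1.02 FPKM in PC9 libraries. COL1A1, COL1A2, COL3A1, DCN and LUM have no row. Of 6 endothelial markers, 0 are in the table. Of 8 haematopoietic markers, 5 are in the table and 4 were tested, all called higher, beside the same 48.4% of all tested genes. Among the 4, ITGAX met the filter only through PC9-GR and ITGAM mainly through PC9-GR. The fifth, LYZ, had 0.142 ± 0.125 FPKM in PC9-GR, where 1 library was at the floor, and 1.09 ± 0.459 FPKM in PC9. Without the filter LYZ was called lower (limma adjusted p = 0.00139), as were 47.5% of all 1705 genes. The 5 markers had a summed level of 46.2 to 57.0 FPKM in PC9-GR and 20.5 to 24.6 FPKM in PC9. Most of this was CD68, with 38.4 ± 3.61 FPKM in PC9-GR and 18.6 ± 1.05 FPKM in PC9. Mean ITGAM was 7.25 FPKM in PC9-GR and 0.570 FPKM in PC9. CORO1A had 4.22 and 2.17 FPKM and ITGAX 2.83 and 0.119 FPKM, in the same order. The part of other cells in the collagen VI difference was not tested.

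The loci of the chains in the table overlap no other listed gene. COL6A1 and COL6A2 are 93.0 kb apart, with no listed gene between them. FTCD, a folate pathway enzyme, follows COL6A2 at a distance of 3411 bases and measured 0.395 ± 0.141 FPKM in PC9-GR and 0.0949 ± 0.0425 FPKM in PC9. It was below the filter, and without the filter it was called higher, with a limma adjusted p of 0.00586, as were 49.6% of all 1705 genes. LSS, the lanosterol synthase of sterol synthesis, lies 52.2 kb beyond COL6A2 and measured 7.64 ± 1.09 FPKM in PC9-GR and 3.58 ± 0.738 FPKM in PC9. On the other side of COL6A1 the nearest listed gene is ITGB2, a leukocyte integrin subunit, 1049.7 kb away, with 2.00 ± 0.185 FPKM in PC9-GR and 0.301 ± 0.159 FPKM in PC9. MX1, an interferon-induced antiviral protein, and AP001610.5 follow at 4570.5 kb, with log2 differences of 1.51 ± 0.176 and 1.10 ± 0.120 (SE). They share a locus in the table, so their reads are uncertain. ITGB2 and AP001610.5 met the filter only through PC9-GR. All 5 of these neighbours of the tandem pair had higher means in PC9-GR, and the authors' ratio was above 1 for 871 of the 1705 listed genes. Only genes selected for a difference are listed, so an unchanged neighbour could not appear.

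Near COL6A3, AC112721.1 lies 7.04 kb away, measured 0.470, 0.590 and 0.832 FPKM in PC9-GR, and was listed at the floor in all 3 PC9 libraries. No fold is given against the floor. AC011286.1, a non-coding RNA, lies 569.6 kb to the other side, with 1.11 ± 0.141 FPKM in PC9-GR and 0.189 ± 0.129 FPKM in PC9. Farther out, the chemokine receptor ACKR3 measured 39.5 ± 2.06 FPKM in PC9-GR and 18.4 ± 3.47 FPKM in PC9, and the homeobox gene GBX2 0.567 ± 0.0704 FPKM in PC9-GR and 0.207 ± 0.0132 FPKM in PC9. GPC1, a cell-surface heparan sulphate proteoglycan 3052 kb away, measured 164 ± 16.1 FPKM in PC9-GR and 81.1 ± 8.88 FPKM in PC9. AC112721.1, AC011286.1 and GBX2 were below the filter. The folds of these neighbours other than AC112721.1 ran from 2.02 to 5.84, against 88.9 for COL6A3.

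Likeness of pattern was measured over the 6 libraries as the root-mean-square difference between log2(FPKM + 1) profiles, each centred on its own mean. Closest to COL6A1 were ARMC9 at 0.0445, the kinase PLK2 at 0.0466 and the growth factor CSF1 at 0.0617. Closest to COL6A2 were MAPT, which encodes the microtubule protein tau, at 0.0346, the chemokine CXCL6 at 0.0761 and the annexin ANXA6 at 0.0778. COL6A3 had no gene as near: the cytokine IL32 was at 0.354, the intermediate filament VIM at 0.460 and MMP9 at 0.464. The chains were not each other's nearest genes. COL6A2 was 228th in order of likeness to COL6A1 at a difference of 0.208, and COL6A3 was 1184th at 1.75. With 2 lines, this measure mainly follows the size of the difference between them.

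The size of the differences depended on scaling, while direction and call held in both scalings run. Both were computed from the listed genes alone, which were selected for a difference. Neither therefore rests on unchanged genes, and the range they span is not a bound on the true differences. With each library scaled to an equal total over the listed genes, the log2 differences were 1.77 for COL6A1, 2.10 for COL6A2 and 4.99 for COL6A3. With median-ratio scaling they were 0.68, 1.01 and 4.26 in the same order. The mean fold of COL6A1 was 3.47 with equal totals and 1.61 with median-ratio scaling, on either side of the 1.99-fold difference in deposited FPKM. For COL6A2 these folds were 4.41 and 2.05, and for COL6A3 155.6 and 71.9. Equal totals moved the median of all tested genes by 0.47 and median-ratio scaling by -0.14. Taken relative to that median, COL6A1 stood 1.61 above it as deposited, 1.93 with equal totals and 1.44 with median-ratio scaling.

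**Figure D4:**
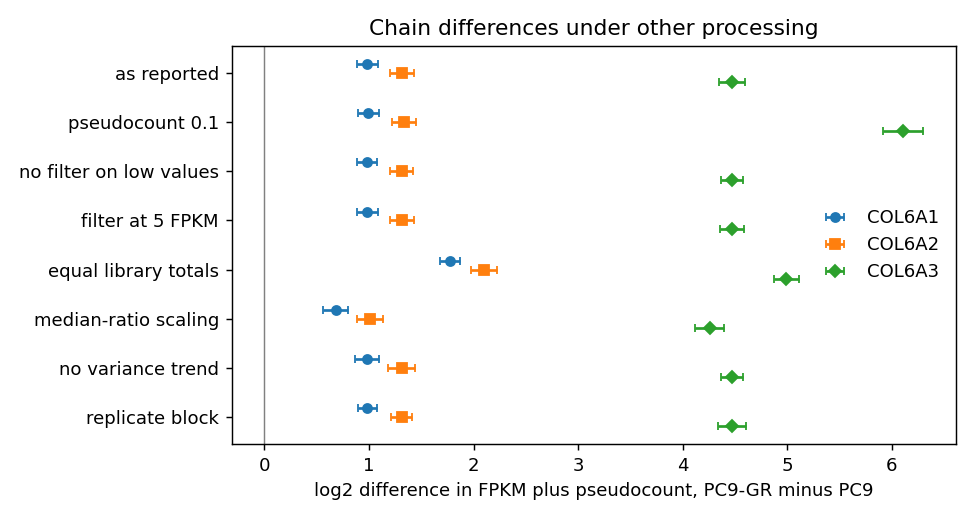
Log2 difference of each chain, PC9-GR minus PC9, on a linear axis, as reported and under 7 other processing settings. Symbols are limma estimates and bars their SE. All values are above 0; equal library totals raise and median-ratio scaling lowers the 3 chains together, and a pseudocount of 0.1 moves COL6A3 to 6.10.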

How the data were processed

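FPKM per library was deposited by the authors, along with group FPKM and a ratio (PC9-GR over PC9) on linear and log2 scales. A p-value and q-value were also deposited, per the file headers. TopHat and Cufflinks were used, per the submitters' processing notes. The build, the gene models, tool versions and the strandedness of counting were not given in the sources used here. Libraries were strand-specific, per the labels' protocols.

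Deposited FPKM was tested as log2(FPKM + 1) with limma 3.58.1 in R 4.3.3 (variance trend, group as the only term, two-sided), with Benjamini-Hochberg adjustment over the 1207 genes that reached 1 FPKM in 3 or more of the 6 libraries. The step was checked on simulated data. Chain ratios were tested by exact permutation in scipy 1.17.1 with Python 3.11.15. All 1705 rows entered the fit, the 498 below the filter only without it. Named genes are the chains, listed members of gene lists (the 4 with the largest absolute difference in lists over 10), the 3 nearest listed genes per side and the 3 most alike genes per chain. Other genes are named where a count or order is spelled out. Members and lists were chosen with earlier results of these data known. Replicate numbers are shared between lines, but nothing says that they pair cultures. Alternatives covered the pseudocount, filter, scaling, variance trend, replicate block and leaving out each library.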

Additional observations from a re-analysis of the deposited data

How the results depend on the processing

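COL6A1, COL6A2 and COL6A3 kept direction and call in each of the 13 alternatives run for them. Their log2 differences ranged from 0.68 to 1.77, from 1.01 to 2.10 and from 4.26 to 6.10, and the largest limma adjusted p values were 0.000193, 3.31e-05 and 1.14e-06. The extremes came from scaling and, for COL6A3, from a pseudocount of 0.1. Leaving out 1 library at a time gave 0.94 to 1.05 for COL6A1, 1.22 to 1.38 for COL6A2 and 4.43 to 4.52 for COL6A3. It gave -0.45 to -0.26 for the log2 difference of the COL6A1 to COL6A2 ratio, 5.37 to 5.64 for COL6A3 to COL6A1 and 4.92 to 5.38 for COL6A3 to COL6A2, none of which can pass 0.05 in an exact test at this size. Adding a pseudocount of 1 before the ratio took the COL6A3 ratios to 3.49 and 3.16. In all, 1203 of the 1207 tested genes were called, so a call is the usual outcome in this preselected table. With 1 library left out, 1192 to 1198 genes were called, and with equal totals 1019. With a filter at 5 FPKM, where fewer genes are tested, 627 were called, and the lists other than cell type markers had 16 called genes, against 31. Of the calls made, 48.5% were higher as deposited, 57.5% with equal totals and 37.3% with the 5 FPKM filter. With equal totals there were 586 higher and 433 lower calls, against 584 and 619 as deposited, so mainly the lower calls changed in number. TEKT4P2 lost its call with equal totals (limma adjusted p = 0.0901).

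With a replicate block, limma called 1205 genes, and the adjusted p was 2.02e-05 for COL6A1, 9.13e-06 for COL6A2 and 5.33e-07 for COL6A3; it changed no call among the chains, and the paired sign-flip test of each ratio gave its smallest possible exact p of 0.25. Deviations of same-numbered libraries correlated at -0.0977, 0.0822 and 0.164, so the numbers were not taken as pairs. Depth is not known, which limits COL6A3 in PC9 most.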

Other observations

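The other listed genes on chromosome 21, which carries COL6A1 and COL6A2, were also mostly higher in PC9-GR. Of 15 such genes, 12 were tested, 11 were called higher and 1, the pseudogene TEKT4P2, lower. Over all tested genes 48.4% were called higher and 51.3% lower. The median log2 difference was 1.05 for the 12, against -0.63 over all tested genes. Of the 11, ADAMTS1, ITGB2, DSCR4, AP001610.5, AP000695.6 and AP001596.6 were below 1 FPKM in every PC9 library. These met the filter only through PC9-GR, so a lower call was not open to them. MIR155HG met it mainly through PC9-GR. The metalloprotease ADAMTS1 measured 4.89 ± 0.293 FPKM in PC9-GR and 0.657 ± 0.180 FPKM in PC9 (SD, n = 3 each). DSCR8 measured 5.23 ± 0.583 FPKM in PC9-GR and 1.60 ± 0.238 FPKM in PC9, and DSCR4 1.99 ± 0.321 FPKM in PC9-GR and 0.285 ± 0.131 FPKM in PC9. Genes of this chromosome outside the table were not analysed here.

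The authors' group FPKM lay above the mean of the library values for each chain, by a factor of 1.03 to 1.05 in PC9-GR and 1.01 to 1.03 in PC9. For COL6A1, the mean of the deposited library values gives a 1.99-fold difference, and the authors' deposited table gives a ratio of 2.05.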
